A study of Rattus norvegicus with 16 samples.

Results

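This account describes 9 interferon-stimulated genes, Isg15, Usp18, Irf7, Ifit3, Oas1a, Oasl, Mx1, Mx2 and Rsad2, in the epididymal fat of young male rats. They were chosen by symbol, with earlier results of these data known. Each array probe was given its gene through the RefSeq accession the array's annotation carries. All 9 genes had a probe, among 15162 genes with a named probe on the array. Usp18 had 2 probes and each other gene had 1.

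The tissue was white fat of the epididymal depot, which lies inside the abdomen beside the epididymis. It came from sons of high-fat-fed rat dams, and the sons ate that diet too until they were killed at 30 days of age, without fasting. In pregnancy and lactation the dams of the HFT group took a grape seed procyanidin extract (GSPE) at 25 mg/kg in low-fat condensed milk, and the dams of the HF group took the milk alone. Each group held 8 animals with 1 Agilent array of Cy3-labelled total RNA each. All 16 animals thus share the high-fat diet, the labels give no strain, and litter membership is not labelled, so any brothers among the animals counted as independent in the tests.

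Interferons are secreted proteins that cells release on sensing foreign or misplaced nucleic acid. Type I interferons bind a receptor made of Ifnar1 and Ifnar2, whose kinases activate transcription factors. The complex called ISGF3, which holds Irf9, binds the interferon-stimulated response element in the promoters of many antiviral genes. Isg15 is a ubiquitin-like modifier, Usp18 removes it and damps receptor signalling, and Irf7 is a factor that amplifies interferon production. Ifit3 binds partner proteins that recognise viral RNA, Oas1a makes the second messenger that activates RNase L, and Oasl is a relative of it. Mx1 and Mx2 are dynamin-like GTPases, and Rsad2 (viperin) is a radical SAM enzyme that blocks virus replication. In fat, adipocytes and resident immune cells can both make such transcripts, and in RNA of whole tissue fewer cells of a type and less RNA per cell cannot be told apart.

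The promoters below are shown because they carry the core letters of the element that ISGF3 binds. RefSeq (GRCr8) gave a window of 250 bases before to 50 bases after the start for 6 of the 9 genes: Mx1, Ifit3, Irf7, Oasl, Oas1a and Rsad2. Isg15, Mx2 and Usp18 had no entry. The motif searched was GAAANNGAAA on either strand, which reads TTTCNNTTTC on the other, and capitals mark each match. The Ifit3 window is chr1:241527076-241527375 (plus strand), with the match 44 bases before the start. The Irf7 window is chr1:205799974-205800273 (minus strand), with the match 69 bases before the start. Oas1a, at chr12:41330216-41330515 (plus strand), held 2 overlapping matches at 41 and 35 bases before the start. Rsad2, at chr6:48788071-48788370 (minus strand), held its match 147 bases before the start. All are written 5′ to 3′ on the gene's strand.
Ifit3: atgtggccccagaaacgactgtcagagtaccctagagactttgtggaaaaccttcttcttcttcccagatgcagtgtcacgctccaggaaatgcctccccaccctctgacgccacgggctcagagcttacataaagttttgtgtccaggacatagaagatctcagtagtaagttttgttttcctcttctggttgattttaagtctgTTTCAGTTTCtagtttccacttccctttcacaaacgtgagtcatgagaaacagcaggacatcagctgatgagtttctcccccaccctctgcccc
Irf7: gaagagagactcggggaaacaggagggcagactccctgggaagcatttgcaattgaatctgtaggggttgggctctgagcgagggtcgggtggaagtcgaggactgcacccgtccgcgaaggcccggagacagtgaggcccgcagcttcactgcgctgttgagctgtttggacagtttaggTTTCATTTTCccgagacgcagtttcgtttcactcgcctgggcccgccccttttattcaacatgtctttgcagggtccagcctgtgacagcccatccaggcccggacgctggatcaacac
Oas1a: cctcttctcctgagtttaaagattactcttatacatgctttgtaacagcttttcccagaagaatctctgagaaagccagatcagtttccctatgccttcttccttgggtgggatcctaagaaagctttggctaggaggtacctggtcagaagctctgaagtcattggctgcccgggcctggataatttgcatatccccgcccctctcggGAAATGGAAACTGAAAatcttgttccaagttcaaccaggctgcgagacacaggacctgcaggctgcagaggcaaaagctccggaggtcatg
Rsad2: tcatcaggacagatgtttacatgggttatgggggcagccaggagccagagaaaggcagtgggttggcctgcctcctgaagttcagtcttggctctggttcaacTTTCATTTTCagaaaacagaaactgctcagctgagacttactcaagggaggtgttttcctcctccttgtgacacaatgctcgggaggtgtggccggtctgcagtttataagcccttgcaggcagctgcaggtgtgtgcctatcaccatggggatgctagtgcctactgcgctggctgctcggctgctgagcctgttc
Thus 4 of the 6 windows held the motif, against 1312 of 33469 rat promoter windows of the same length (3.92%). Of 51 other interferon-stimulated genes with a window, 27 held it. The core of the gamma-activated site, TTCNNNGAA, was in 1 of the 6 (Oas1a), in 10 of the 51 and in 8.87% of all windows. A match is a run of letters and shows no binding, and the windows of Mx1 and Oasl lacked these letters only within this stretch.

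Levels below are the log2 signal of a probe relative to the 75th percentile of its own array, so 0 is the signal of that percentile and a step of 1 is a doubling. That percentile lay between 752.8 (HF 10) and 1366.3 (HFT 28), and no spot was saturated. The arrays filled 4 slides, each with 2 HF and 2 HFT animals in fixed positions, so position and group cannot be told apart. All 9 adipocyte markers with a probe were above background in enough animals to be tested. Lcn5, a secreted lipocalin of the epididymal duct, was above 0 on HF 8 (4.12), HFT 23 (3.42) and HFT 28 (4.12) and between -6.23 and -2.71 on the other 13. Upk3a, a protein of the urinary tract lining, was above 0 on HFT 22 (2.95), HFT 24 (4.69) and HF 35 (4.69). Comparisons are given with and without these arrays.

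Transcripts of the set were measurable in all animals for 8 of the 9 genes, and for each of them the difference between the group means was smaller than the standard deviation (SD) within either group. From the lowest to the highest of 16 animals the level spanned 6.21-fold for Usp18, 5.82-fold for Ifit3, 5.01-fold for Isg15 and 4.32-fold for Oas1a. Rsad2, Mx1 and Irf7 spanned between 2.67- and 3.14-fold, and Mx2 only 1.59-fold. The median SD over all tested probes was 0.262 log2 units. Usp18 varied more than 92.4% of the 21808 tested probes, Oas1a more than 91.8%, Ifit3 more than 91.0% and Isg15 more than 90.3%. Mx2 varied more than only 28.8%. The spread of the dimmer of these genes depended on the background correction and its offset. The normexp setting added an offset of 50 to every spot, which by itself narrows log2 differences at low signal. With normexp background correction the standard error of the HFT minus HF difference was 0.203 for Usp18 instead of 0.378. It was 0.166 instead of 0.341 for Ifit3, 0.232 instead of 0.362 for Oas1a and 0.284 instead of 0.322 for Isg15.

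**Figure D1:**
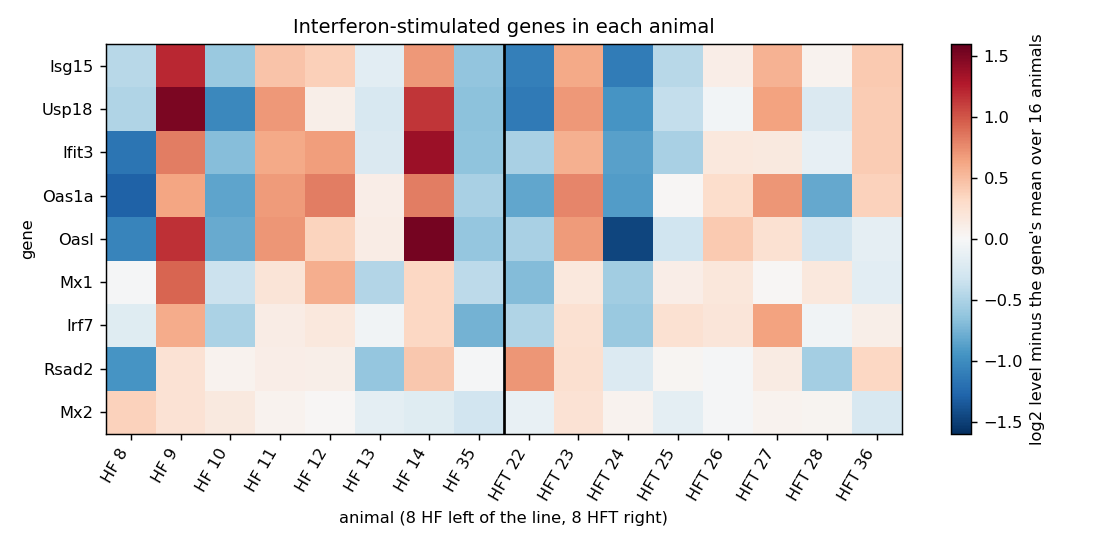
Level of each gene in each animal as the log2 difference from that gene's mean over the 16 animals (colour scale in log2 units), with 8 HF animals left and 8 HFT animals right of the line. HF 9 and HF 14 are red over the upper 7 rows, HF 10 and HFT 24 are blue there, and the rows of Rsad2 and Mx2 follow another order.

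The modifier Isg15 ranged in HF from -0.96 (HF 35) over a median of -0.23 to 0.88 (HF 9), and in HFT from -1.45 (HFT 24) over -0.25 to 0.27 (HFT 23). The groups overlapped over most of their range, with HF 9 and HF 14 (0.36) above every HFT animal and HFT 22 (-1.42) and HFT 24 below every HF animal. The mean was -0.22 ± 0.67 (SD, n = 8) in HF and -0.44 ± 0.70 (n = 8) in HFT. Usp18, the protease that removes Isg15 from proteins, ran from -4.85 (HF 10) over -3.89 to -2.31 (HF 9) in HF and from -4.94 (HFT 22) over -3.95 to -3.12 (HFT 23) in HFT. Its extremes thus fell on the same kind of animals as those of Isg15: HF 9 was highest for both genes, and HF 14 came next. The Usp18 mean was -3.69 ± 0.91 (SD, n = 8) in HF and -3.94 ± 0.69 in HFT. On its other probe Usp18 spanned 2.05 log2 units instead of 2.64, and the probes differed by 0.18 to 1.18 units within an animal.

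Irf7, the amplifying factor, ranged from -0.23 (HF 35) over 0.56 to 1.13 (HF 9) in HF and from -0.06 (HFT 24) over 0.67 to 1.18 (HFT 27) in HFT. Its highest animal was HFT 27, just above HF 9, and its mean was 0.49 ± 0.44 (SD, n = 8) in HF and 0.57 ± 0.41 in HFT. Among the genes whose products bind RNA or RNA-binding partners, Ifit3 ranged from -5.44 (HF 8) over -4.09 to -2.90 (HF 14) in HF. In HFT it ranged from -5.14 (HFT 24) over -4.26 to -3.70 (HFT 23), all within the HF range. Its mean was -4.18 ± 0.90 in HF and -4.37 ± 0.50 in HFT (SD, n = 8 each). Oas1a ran from -4.06 (HF 8) over -2.40 to -1.95 (HF 14) in HF and from -3.66 (HFT 24) over -2.62 to -1.99 (HFT 23) in HFT. The values of Oas1a left a gap of 0.54 units. HF 8, HF 10, HF 35, HFT 22, HFT 24 and HFT 28 lay at -3.29 or lower and the other 10 animals at -2.75 or higher, with 3 HF and 3 HFT animals on the low side. The Oas1a mean was -2.72 ± 0.83 (SD, n = 8) in HF and -2.81 ± 0.70 in HFT.

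Oasl was well above background in HF 9 and HF 14 only, and in 0 of 8 HFT animals, so the HFT group has only a bound and the gene was not tested. Its measured values ran from -8.35 (HF 8) over -7.06 to -5.76 (HF 14) in HF and from -8.76 (HFT 24) over -7.52 to -6.62 (HFT 23) in HFT. The lowest signal of any probe well above background lay between -8.05 and -7.36 on the 16 arrays. That is not the limit for Oasl itself, which at -6.59 in HF 11 and -6.62 in HFT 23 was still not well above background. The measured means were -7.12 (HF) and -7.47 (HFT). No fold is given, since 6 of the 8 HF animals were not well above background either. The pair of animals in which Oasl was well above background are the same that were highest for Isg15 and Usp18.

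Mx1, the GTPase, ranged from -0.84 (HF 13) over -0.28 to 0.57 (HF 9) in HF and from -1.06 (HFT 22) over -0.30 to -0.18 (HFT 26) in HFT. Only HF 9, HF 12 (0.22), HF 11 (-0.16) and HF 14 (-0.04) exceeded the highest HFT animal, and the Mx1 mean was -0.27 ± 0.51 (SD, n = 8) in HF and -0.46 ± 0.35 in HFT. Mx2 moved little, from 3.43 (HF 35) over 3.77 to 4.10 (HF 8) in HF and from 3.47 (HFT 36) over 3.74 to 3.96 (HFT 23) in HFT, with a mean of 3.75 ± 0.23 (SD, n = 8) and 3.71 ± 0.16. Rsad2 ranged from -1.87 (HF 8) over -0.85 to -0.50 (HF 14) in HF and from -1.47 (HFT 28) over -0.84 to -0.22 (HFT 22) in HFT. Rsad2 was highest in HFT 22, an animal that ranked 15 of 16 for Isg15 and 16 of 16 for Mx1 and Usp18, and its mean was -1.01 ± 0.46 (SD, n = 8) in HF and -0.84 ± 0.37 in HFT. HF 8 was lowest of 16 for Ifit3, Oas1a and Rsad2 yet ranked 10 for Mx1 and 1 for Mx2.

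The comparison of HFT with HF asks whether the extract given to the dams altered these transcripts in their sons. None of the 8 tested genes differed between the groups beyond the spread between animals. Over all 21808 probes limma called 0 at an adjusted p under 0.05 (0%), and 515 (2.36%) had an unadjusted p under 0.05. Of the 8 genes, 0 were at an unadjusted p under 0.05, 2 lay above 0 and 6 below. Over all tested probes 9558 lay above 0 and 12250 below. The median difference of the 8 genes, HFT minus HF, was -0.14 log2 units, beside -0.016 over all tested probes. The adjusted p was 1 (limma) for each.

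Usp18 differed by -0.25 (standard error, SE, 0.38) on the brighter probe and by -0.13 on the other, and Isg15 by -0.22 (SE 0.32). For Isg15 the 95% interval ran from -0.91 to 0.46, so that HFT could lie between 0.533 and 1.38 times HF. Mx1 differed by -0.20 (SE 0.21) and Ifit3 by -0.18 (SE 0.34). Oas1a differed by -0.098 (SE 0.36). Irf7 and Rsad2 lay above 0, at 0.076 (SE 0.20) and 0.17 (SE 0.20). The tightest interval was that of Mx2, whose difference of -0.047 (SE 0.10) left HFT between 0.836 and 1.12 times HF. The widest, that of Usp18, left it between 0.483 and 1.47 times HF.

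Within slides the differences of Isg15 were -0.62, -0.71, -0.021 and 0.46, and those of Usp18 -0.73, -0.49, -0.059 and 0.28. For Mx1 they were -0.72, -0.16, 0.12 and -0.024, for Ifit3 0.21, -0.65, -0.20 and -0.081, and for Oas1a 0.30, -0.36, -0.73 and 0.39. No gene of the 8 had 1 sign on all 4 slides. For Rsad2 they were 0.84, -0.17, -0.024 and 0.022, so it was largest on slide 1, which held HF 8, the lowest animal for Rsad2, and HFT 22, the highest. Blocking on the slide brought no gene past the threshold.

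**Figure D2:**
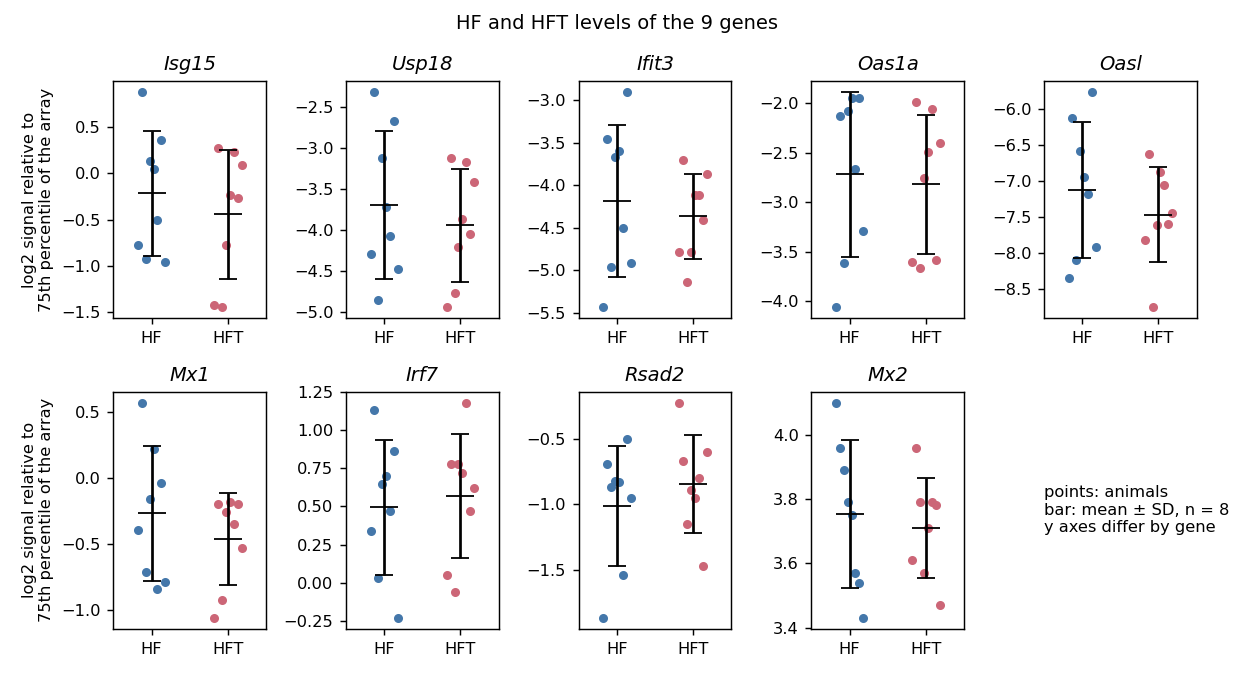
Log2 signal relative to the array's 75th percentile for each gene, with 1 point for each of 8 HF (blue) and 8 HFT (red) animals and bars for mean ± SD. The groups overlap for every gene, and the vertical axes differ between panels.

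Without the 3 arrays on which Lcn5 was above 0 (7 HF and 6 HFT animals left), Isg15, Usp18, Ifit3, Mx1 and Oas1a lay further below 0 than with all arrays, and none of the 8 genes passed. Limma then called 1 of 21808 probes (0.00459%), for Acot5, an acyl-CoA thioesterase that is not of the set and is named because it was the single call, and 533 (2.44%) had an unadjusted p under 0.05. Of the 8 genes 0 had such a p, and the smallest in limma was 0.202, for Ifit3. The differences were -0.47 for Ifit3, -0.45 for Isg15 and for Usp18, -0.30 for Mx1 and for Oas1a, and -0.050 for Mx2. Irf7 and Rsad2 lay at 0.033 and 0.12. The median of the 8 was -0.301, beside 0.001 over all probes. The arrays left out held HF 8, the lowest HF animal for Ifit3 and Oas1a. They also held HFT 23, the highest HFT animal for Isg15, Usp18, Ifit3 and Oas1a. With 1 animal left out, Ifit3 differed by -0.363 without HF 8, -0.277 without HFT 23 and -0.177 without HFT 28.

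Without the 3 arrays on which Upk3a was above 0 the median of the 8 genes was -0.028, Isg15 stood at 0.000896, Oas1a at 0.0912, Mx2 at -0.0896 and Rsad2 at 0.121. With both sets of arrays left out the median was -0.142, Isg15 stood at -0.167 and Ifit3 at -0.373. The part of these arrays in the differences was not tested.

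Animals differed along a common line in 7 of the 9 genes, all but Mx2 and Rsad2, a division made after the values were seen. Co-variation was measured for the 36 gene pairs over 16 animals, with permutation p-values (100000 resamples, two-sided) adjusted over the 36. All points of a pair share the RNA, the array and its scaling. Among all 36 pairs r had a median of 0.718 and ran from -0.343 to 0.963. For the 21 pairs of Isg15, Usp18, Irf7, Ifit3, Oas1a, Oasl and Mx1, Pearson's r lay between 0.628 and 0.963 (median 0.835) and Spearman's rho between 0.685 and 0.982. With normexp background correction the lowest r of the 21 was 0.331 and the median over all 36 pairs was 0.477. In the main setting all 21 passed, with a largest adjusted permutation p of 0.0154 for r and 0.00742 for rho. Without the 2 animals farthest from the median of the gene on the x axis, r lay between 0.579 and 0.964. Within HF it lay between 0.65 and 0.971 and within HFT between 0.607 and 0.976.

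Isg15 and Usp18, the modifier and its protease, made the tightest pair, with r = 0.963 and rho = 0.982 (permutation p = 1e-05 for each, the smallest the resamples can give). Oasl was well above background on 2 of 16 arrays only, so its r values rest mostly on signals not well above background. Without Oasl 15 pairs of 6 genes remained, with r between 0.628 and 0.963 (median 0.832), and all 15 passed. Since the values of Oas1a left a gap, its r was also taken on either side, where its range is narrower by construction. In the 10 animals above the gap its r with the other 6 genes lay between 0.442 (Irf7) and 0.838 (Ifit3), with a median of 0.706. In the 6 animals below the gap it lay between -0.602 and 0.611, with a median of -0.117.

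**Figure D3:**
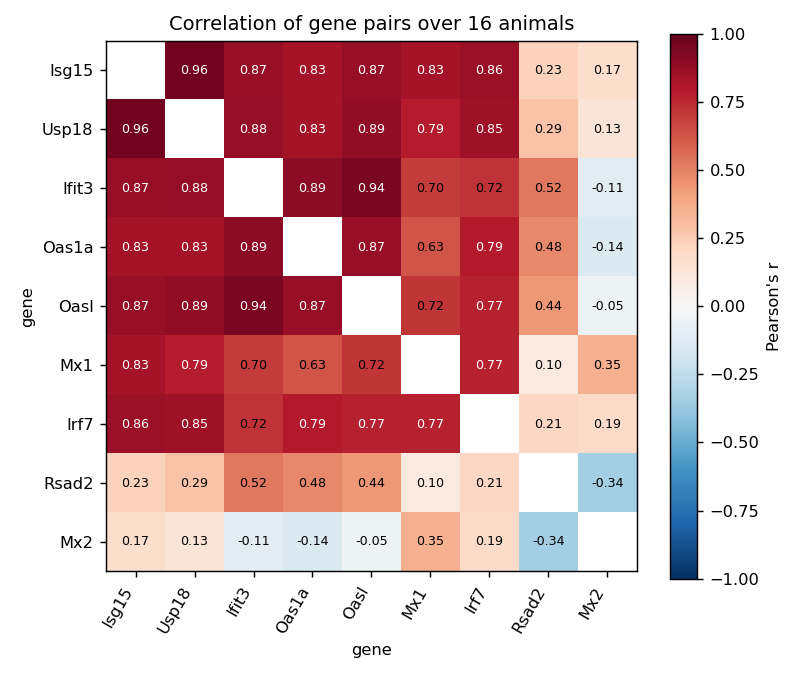
Pearson's r over 16 animals for each of the 36 pairs of the 9 genes. The block of 7 genes at the upper left holds values of 0.63 to 0.96, and the rows of Rsad2 and Mx2 hold lower ones.

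Mx2 followed another order, with r to the 7 genes between -0.142 and 0.355 and 0 of 7 pairs past the adjusted threshold. With Mx1, its relative, it had r = 0.355 (adjusted permutation p = 0.255). Rsad2 had r to the 7 genes between 0.1 and 0.524, with 0 of 7 past the threshold by r and 2 by rho, Ifit3 (rho 0.603) and Oas1a (rho 0.571). Without HFT 22 alone its r to the 7 genes lay between 0.369 and 0.724, and without the arrays where Lcn5 or Upk3a was above 0 between 0.355 and 0.58. Within HF its r to them lay between 0.345 and 0.761, and within HFT between -0.444 and 0.266. Whether the groups differ in this was not tested. Among HFT animals HFT 22 was highest for Rsad2 and among the lowest for the others.

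**Figure D4:**
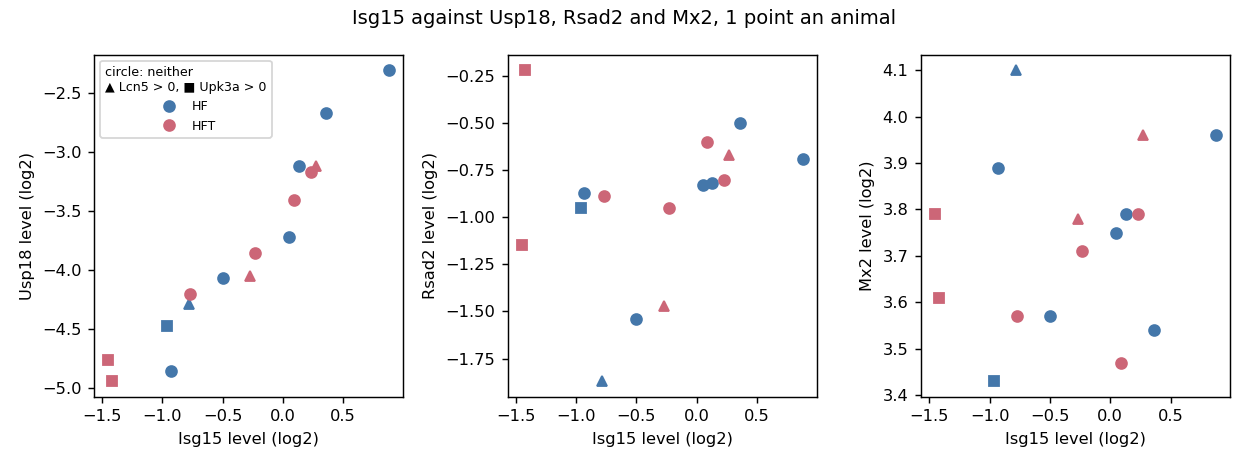
Isg15 level against that of Usp18, Rsad2 and Mx2 (log2, relative to the array's 75th percentile), 1 point an animal, blue for HF and red for HFT. Triangles mark Lcn5 above 0 and squares Upk3a above 0. Usp18 follows Isg15 (r = 0.963), while Rsad2 (r = 0.23) and Mx2 (r = 0.173) scatter.

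HF 9 and HF 14 were the animals with the highest set of transcripts. Averaged over the 7 genes, each centred on its mean, HF 9 stood at 0.98 and HF 14 at 0.89 log2 units. HF 14 was among the 3 highest animals for 7 of these 7 genes and HF 9 for 6, and over all 9 genes for 8 and 7. The exceptions were HF 14 for Mx2 (rank 14 of 16) and HF 9 for Oas1a (rank 6) and Rsad2 (rank 5). The 7 genes include Oasl, whose values in the other 14 animals were not well above background. HFT 23 (0.53), HF 11 (0.50), HF 12 (0.44) and HFT 27 (0.43) followed, so both groups had animals in the upper part of the range. The lowest were HFT 24 (-0.92), HFT 22 (-0.75), HF 10 (-0.69), HF 8 (-0.67) and HF 35 (-0.61). HF 10 and HFT 24 were among the 5 lowest for 7 of 7 genes. From HFT 24 to HF 9 the mean spanned 1.9 log2 units, or 3.73-fold.

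For none of the 9 genes did 1 animal stand apart from the rest of its group by Dixon's ratio of gap to range. The SD of the 7-gene mean was 0.70 in HF and 0.53 in HFT. Slide means lay between -0.32 and 0.23, and a slide holds too few animals for an r of its own. The 3 arrays with Upk3a above 0 were all among the 5 lowest, and the 3 with Lcn5 above 0 stood at -0.67 (HF 8), 0.53 (HFT 23) and -0.19 (HFT 28). Their part in the order of animals was not tested. The median r of the 21 pairs was 0.793 without both sets of arrays and 0.87 without those of Lcn5 alone.

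The highest pair did not share their whole profile. HF 9 was highest for Isg15, Usp18 and Mx1, and HF 14 for Ifit3, Oas1a and Oasl. Slfn4, a schlafen protein of myeloid cells, read -2.41 in HF 9 and -3.56 in HF 14. Ifi27l2b read 3.69 and 2.54 there, Rtp4, a chaperone of membrane receptors, -0.21 and -0.94, and Bst2 (tetherin), which holds budding virus at the cell surface, 1.30 and -0.67. Dhx58, a helicase of the RNA sensor family, read -2.80 and -2.74.

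The genes most like the set, by r over 16 animals to the mean of the 9 centred genes, were mostly known interferon targets. The first 10 were Oas1i (0.945), Dhx58 (0.933), Oas1k (0.927), Oasl2 (0.900), Slfn4 (0.878), Ifi27l2b (0.878), Rtp4 (0.866), Ubxn4 (0.791), Gbp2 (0.788) and B2m (0.760). Of these, 8 were on the lists of interferon genes, and Ubxn4 and B2m, the light chain of MHC class I, were not. Oas1i and Oas1k are close copies of Oas1a, so their probes may share signal with it. Ifi27l2b reached 0.829 on its brighter probe. The members themselves, each against the mean of the other 8, gave 0.936 for Isg15 and Usp18, 0.929 for Ifit3, 0.928 for Oasl, 0.886 for Oas1a, 0.843 for Irf7 and 0.771 for Mx1. Rsad2 gave 0.358 and Mx2 0.02.

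Over 11579 other tested genes, 19 (0.164%) had r above 0.7 to the set, and 13 of these 19 were on the pathway lists. Of 48 tested genes on the list of other interferon-stimulated genes 11 (22.9%) did so, with a list median of 0.346 beside 0.06 over all genes. Of the receptors, kinases and factors 1 of 14 did, Irf9 (0.721), and of the nucleic acid sensors and adaptors 1 of 10, Dhx58. Of the genes led by interferon gamma 0 of 16 did, the highest being Gbp5 at 0.657. Oas1i and Oas1k, the close copies of Oas1a, are among the 11. These shares describe the 16 animals and carry no test, and the lists were chosen with earlier results of these data known.

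**Figure D5:**
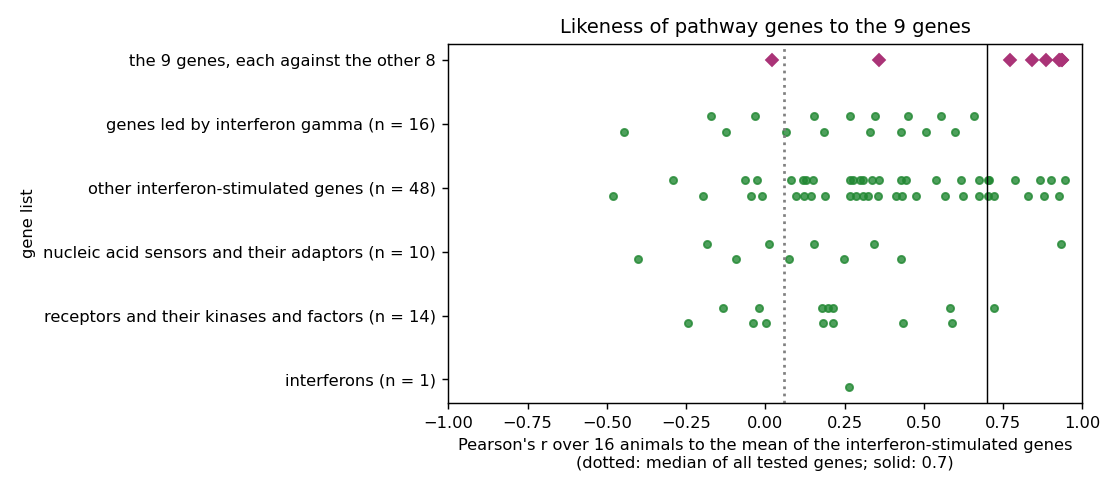
Pearson's r over 16 animals of each tested pathway gene to the mean of the 9 genes, by list (green points), with the 9 genes against the other 8 on top (diamonds). The dotted line is the median of all tested genes (0.06) and the solid line 0.7, which 11 of 48 other interferon-stimulated genes exceed.

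Not every antiviral family member moved with the set. Oas2 had r = -0.065 and Oas3 r = -0.482, the lowest on its list, although both make the same messenger as Oas1a. Oas3 was well above background in 7 animals only. Ifit2 (r = 0.674) and Ifi44 (r = 0.706) were closer, Ifi27 had r = 0.617 and Bst2 0.122. Ifit1 was well above background in 1 animal, HFT 27, at -5.65. Cxcl10, a chemokine that draws T cells, spanned 2.93 log2 units, from -5.17 (HFT 25) to -2.24 (HFT 28), with r = 0.429.

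The genes most like Mx2 were other: Ctbp2 (0.941), Alms1 (0.94) and Usp42 (0.935), all highest in HF 8 as Mx2 was. Those most like Rsad2 were Gch1 (0.782), which makes the cofactor tetrahydrobiopterin, and Cdc25b (0.744), a cell cycle phosphatase, both lowest in HF 8 as Rsad2 was.

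Few interferon transcripts were measurable, and of the 11 interferon genes listed only 5 had a named probe, so the others were not measured. Ifng, Ifnb1 and Ifnk were well above background on 0 arrays and Ifna5 on 1. Ifna4 was measured in all 16 animals, at -3.73 ± 0.15 (SD, n = 8) in HF and -3.85 ± 0.14 in HFT, a difference of -0.12. The receptor chain Ifnar1 stood at -2.29 ± 0.22 in HF and -2.44 ± 0.33 in HFT. The factors Stat2, Irf9 and Irf3 differed between the groups by less than their SD. Stat2 was 1.59 ± 0.18 (SD, n = 8) in HF and 1.57 ± 0.21 in HFT, and Irf9 -1.80 ± 0.27 and -1.89 ± 0.28. Irf3, which starts the response after sensing, was 3.39 ± 0.18 and 3.35 ± 0.11. Stat2 spanned 0.59 log2 units over the animals, less than the 2.33 of Isg15, and had r = 0.589 to the set.

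By list, 0 genes in any passed an unadjusted p of 0.05 in limma, beside 515 (2.36%) of all 21808 tested probes. Over all those probes 9558 lay above 0 and 12250 below (median -0.016). Of the receptors, kinases and factors 6 of 14 lay above 0 and 8 below (median -0.021). Irf5 (0.19), Irf1 (-0.14) and Il10rb (0.12) had its smallest p-values. Of the sensors and adaptors 6 of 10 lay above (median 0.033), and Tlr3 (-0.39), Sting1 (0.09) and Tlr8 (0.19) had the smallest p-values, while Ifih1 lay at 0.03 and Dhx58 at -0.03. Of the 48 other interferon-stimulated genes 15 lay above and 33 below (median -0.035), and Bst2 (-0.41), Oas3 (-0.23) and Oas2 (-0.12) had the smallest p-values. Of the genes led by interferon gamma 9 of 16 lay above (median 0.015), among them Serping1 at 0.08, while Igtp, Tapbp and Psmb8 lay at -0.09, -0.07 and -0.03.

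Markers of cell types were summarised by the median of each list and set beside Isg15, with permutation p-values adjusted over 11 lists, and none passed. The smallest adjusted p for r was 0.22, that of the urothelial list, whose r over all 16 animals was negative (-0.571, rho -0.344). That list split the arrays, so an r over all 16 mostly sets a few high arrays against the rest. Its centred median was 5.08 on HF 35, 4.39 on HFT 24 and 3.51 on HFT 22, and between -2.07 and 0.42 (HF 9) on the other 13. Within those 13 its r to Isg15 was 0.533 (permutation p = 0.0553, adjusted 0.111) and its rho 0.231. The epididymal list stood at 1.93 on HF 8, 1.90 on HFT 28 and 1.11 on HFT 23, and also at 1.92 on HF 9, the animal highest for Isg15, whose Lcn5 level was -4.98. Within the 13 animals without high Lcn5 its r to Isg15 was 0.35 (permutation p = 0.252). Macrophage markers were higher in HFT for 15 of 15 tested genes, with a median difference of 0.303, while 0 of 8 endothelial markers (median -0.196) and 0 of 5 neutrophil markers (-0.152) were, beside 9558 of 21808 probes over all. Markers of 1 cell type are not independent of one another, no marker passed the adjusted threshold in limma, and the counts were not tested. The summed level of the macrophage markers, as a multiple of the array's 75th percentile, was 37.7 to 63.2 in HF and 45.8 to 71.7 in HFT, so the groups overlapped. The centred median of the macrophage markers had r = 0.051 (permutation p = 0.848) and rho = 0.079 (permutation p = 0.771) to Isg15 over the 16 animals. Plasmacytoid dendritic cell markers gave r = 0.081 (permutation p = 0.767) and rho = 0.097 (p = 0.721), and adipocyte markers r = 0.131 (p = 0.63) and rho = 0.176 (p = 0.508). The summed level of 6 plasmacytoid markers with a probe (4 of them tested) was 4.54 to 7.01 in HF and 4.01 to 5.63 in HFT, and Ly6d was well above background in no animal. Markers of natural killer and cytotoxic cells gave r = 0.337 (permutation p = 0.203, adjusted 0.744) and rho = 0.562 (p = 0.0252, adjusted 0.277). HF 8 (1.23) and HFT 28 (1.88), both with Lcn5 above 0, stood highest on that list, and HFT 23, also with Lcn5 above 0, stood at 0.46. The arrays with Upk3a above 0, HFT 22, HFT 24 and HF 35, stood at -0.7, -0.95 and -0.38. The part of these arrays in the list's r was not tested. Without HF 8 and HFT 28 r was 0.758, a value that was not tested. It was the highest of the 11 lists when each was taken without its 2 farthest animals. The other lists then gave r between -0.404 (B cells) and 0.395 (T cells). The summed level of the natural killer and cytotoxic markers was 41.9 to 53.5 in HF and 30.1 to 70.1 in HFT. B cell markers gave the lowest r of the immune lists, -0.454 (permutation p = 0.0766, adjusted 0.421), and T cell markers gave 0.034. The part of these cells in the animals' order was not tested.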

How the data were processed

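Each of 16 rats gave 1 Agilent 1-colour array. The deposited intensity values are processed signals of Agilent Feature Extraction 10.7.3.1, per the file headers, which subtract background. The 0 or 1 marks of that program for spots well above background, not uniform or far from their replicates were used as deposited score values. A second deposited file holds log2 values from the authors. Their normalization is not given in the sources read, and they served as an alternative only.

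From these, log2 signals were taken relative to the 75th percentile of each array over the spots that are not controls (58717 spots an array). Marked spots were left out and replicate spots averaged. Of 30367 probes 23 lost all spots on an array and were dropped, and 17997 had a symbol through RefSeq (GRCr8), for 15162 genes. A probe was tested where 4 or more of a group's 8 arrays showed it well above background, which held for 21808; the test was run with limma 3.58.1 in R 4.3.3, with files read by the data.table package (version 1.17.8), with Benjamini-Hochberg adjustment over all of them. The brighter probe spoke for a gene. Permutation tests and sequence searches ran in Python 3.11.15 with scipy 1.17.1, numpy 2.4.6 and pandas 2.3.3. The number of arrays limits the precision.

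The genes named by rule were the 9, a fixed panel of pathway genes, the 3 of smallest p in each of 5 lists, and the 10 most alike. 1 gene of the panel is not reported here. The members and lists were chosen with earlier results of these data known. Alternatives were normexp background correction (offset 50, on median spot intensity, as the files hold no mean), quantile normalization, the 75th percentile over probes well above background on all arrays, filters, the slide as a block, array weights, and leaving out arrays. Proteins and probe sequences were not analysed here.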

Additional observations from a re-analysis of the deposited data

Results flagged for a closer look

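Within each group of 8, the gap between an extreme animal and its nearest neighbour was set against the group's range. This was done for the measured genes of the naming rule above and every probe of the 9 genes. Other genes mentioned, such as those most like Mx2 and Rsad2, were not screened in this way. Of 92 groups (184 ends) 7 ends exceeded Dixon's 95% critical value, and chance flags about 1 in 20 groups. None of these was one of the 9 genes. HF 8 was low for Irf9, at -2.4, with the next HF animal at -1.91. HF 35 was low for Ifi44, at -0.61 against -0.16, and for Serping1, at 3.45 against 3.79. HFT 23 was high for the RNA sensor Ifih1, at -3.7 against -4.21. HFT 24 was low for the guanylate-binding protein Gbp2, at 0.64 against 1.13. HFT 28 was low for Tlr8, at -6.02 against -5.33. HF 9 was high for B2m, at 5.01 against 4.48. HF 8, HFT 23 and HFT 28 had Lcn5 above 0, and HF 35 and HFT 24 had Upk3a above 0.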

How the results depend on the processing

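Besides the main setting, 27 were tried. The count of probes past the adjusted threshold was 0 (limma) in 26 and 1 without the arrays where Lcn5 is above 0. The median difference of the 8 genes stayed below 0 in all, from -0.301 to -0.028, and with each animal left out in turn it ran from -0.251 to -0.035, the latter without HF 9. Mx1, Usp18 and Rsad2 kept their sign in every setting. Without the arrays where Upk3a is above 0, Isg15 turned to 0.000896 and Oas1a to 0.0912. Leaving out each animal in turn gave Oas1a -0.29 to 0.0233, Irf7 -0.0284 to 0.167, Ifit3 -0.363 to 0.000236, Mx2 -0.0927 to 0.0028, Usp18 -0.416 to -0.0522, Isg15 -0.329 to -0.067, Mx1 -0.277 to -0.0752 and Rsad2 0.0425 to 0.255, with Usp18, Isg15 and Mx1 nearest 0 without HF 9 and the changed signs of Ifit3 without HF 14 and of Mx2 without HF 8. These values had limma p-values far above 0.05, and the cause of the changes was not tested. The median r over 36 pairs was 0.477 with normexp and reached 0.781, and that of the 7-gene pairs, an alternative added after seeing the data, 0.776 to 0.87, with a lowest pair of 0.331 under normexp. No paired analysis was possible because the groups share no replicate numbers. Low signal limits Oasl, Ifit1 and Oas3, and with normexp the SE of Usp18, Ifit3 and Oas1a was smaller than in the main setting.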
